A study of Mus musculus with 2 samples.

Results

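The genes described here are 8 genes that mark mast cells and basophils, namely Cpa3, Ms4a2, Mcpt8, Cma1, Fcer1a, Hdc, Prss34 and Il1rl1. They were taken by symbol from 27998 genes in each matrix of a scRNA-seq data set of mouse liver at E12.5 (E, embryonic day). They were chosen by their known role as markers and by their UMI counts per cell type in earlier results of these data, where UMI stands for unique molecular identifier, which marks a captured RNA molecule. All 8 genes had a UMI in a kept cell of library 1, and 7 of them in library 2, where Cma1 had none. The labels name 1 wild-type C57BL/6 liver, whose cells were sorted free of debris, dead cells and doublets and split into 2 libraries as technical replicates. The series design speaks of 2 suspensions instead. With 1 liver there is 1 group and no test between animals, so no p-value is given. The 2 libraries show how far a value repeats, and all confidence intervals cover counting error only.

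Mast cells and basophils are rare granule-bearing white blood cells that bind immunoglobulin E (IgE) through a shared surface receptor and release histamine when it is cross-linked. Mast cells mature in tissues and fill their granules with carboxypeptidase, chymases and tryptases, whereas basophils mature in blood-forming organs and carry a smaller set of proteases. Both arise from myeloid progenitors, and in the embryo the yolk sac and then the liver are sources of such progenitors. Growth of mast cells depends on the receptor tyrosine kinase KIT.

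Library 1 held 5480 kept cells and 51969226 UMIs, with a median of 6261 UMIs per cell. Library 2 held 5057 kept cells and 62738015 UMIs, with a median of 9774. The lowest kept cell had 504 UMIs in library 1 and 4387 UMIs in library 2, so small cells were kept only in library 1. The cell types of the deposited cell table were used: hematopoietic stem and progenitor cells (HPSC), granulocytes (G), monocytes and Kupffer cells (Mo/KC), megakaryocytes (Mk), erythroid progenitors (Ery), erythroblasts (Eryb), primitive erythroid cells (EryP), endothelial cells (EC) and hepatoblasts (Hepa). No type of the table is named for mast cells or basophils. Of 14 defining markers checked, 12 were highest in the type they mark, while Myb was second in HPSC and Klf1 second in Ery. The libraries shared 31 cell barcodes, 1 of them in G or HPSC, and none of the shared barcodes belonged to a cell with several of the 8 genes.

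UMIs of the 8 genes lay mostly in G, HPSC and Ery. Cpa3, which encodes the mast cell carboxypeptidase A, and Hdc, which encodes the enzyme that makes histamine, were the most abundant, with 847 and 1214 UMIs in all kept cells. G cells held 58.2% of the Cpa3 UMIs and 78.4% of the Hdc UMIs, although there were only 287 such cells. Levels are given below as UMIs scaled to 1000000 UMIs of a cell type (CPM), with exact Poisson 95% intervals. Because the genes were listed with this pattern known, their levels are a description.

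In library 1, G cells held 289 Cpa3 UMIs (153 CPM, 136 to 171), HPSC 87 (25.2 CPM, 20.2 to 31.1), Ery 94 (4.93 CPM, 3.99 to 6.04) and Eryb 7 (0.289 CPM, 0.116 to 0.594). In library 2, G cells held 204 Cpa3 UMIs (108 CPM, 93.3 to 123), HPSC 85 (27.2 CPM, 21.7 to 33.6), Ery 75 (4.17 CPM, 3.28 to 5.23) and Eryb 4 (0.113 CPM, 0.0307 to 0.289). The order of these 4 types was the same in both libraries and their intervals did not overlap. Over both libraries, Cpa3 was 4.97 times as high in G as in HPSC (exact interval of the ratio 4.17 to 5.95) and 5.74 times as high in HPSC as in Ery (4.61 to 7.13). The libraries differed in the first ratio, with 6.06 in library 1 and 3.96 in library 2, both outside its interval. Their intervals for Cpa3 in G did not overlap either. Such intervals treat UMIs as independent, although a single G cell held 33 Cpa3 UMIs. The Mk and EC cells held 1 Cpa3 UMI each, and none was found in Mo/KC, EryP or Hepa cells, which allows up to 1.92, 1.56 and 2.07 CPM.

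Hdc had 477 and 475 UMIs in G cells of libraries 1 and 2 (252 and 251 CPM), which were almost the same level. In HPSC it had 39 and 38 UMIs (11.3 and 12.2 CPM), and in Ery 85 and 68 UMIs (4.46 and 3.78 CPM). Over both libraries, Hdc was 21.5 times as high in G as in HPSC (17.0 to 27.4), and 2.84 times as high in HPSC as in Ery (2.13 to 3.75). The fall from G to HPSC was thus steeper for Hdc than for Cpa3 in each library, with ratios of 22.3 and 20.6 against 6.06 and 3.96. The ratio intervals, which cover counting error only, did not overlap. The share of G cells with an Hdc UMI was 67.2% (61.5 to 72.6, Clopper-Pearson), against 27.5% (22.4 to 33.1) with a Cpa3 UMI. In Eryb cells the shares were 0.350% for Hdc and 0.148% for Cpa3 at a median of 7287 UMIs, against a median of 12715 UMIs in G. After each cell had been thinned to 3600 UMIs, the shares in G were 43.2% for Hdc and 18.0% for Cpa3.

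Ms4a2 and Fcer1a encode the beta and alpha chains of the IgE receptor. Ms4a2 had 31 UMIs in 10 G cells of library 1 and 16 UMIs in 6 G cells of library 2 (16.4 and 8.44 CPM), against 0 and 1 UMIs in HPSC and 0 and 10 UMIs in Ery. Fcer1a was found in G only, with 3 UMIs in 2 cells of library 1 and 1 UMI in library 2. The absence elsewhere allows up to 0.456 CPM in HPSC and 0.0810 CPM in Ery, against 1.06 CPM in G (0.288 to 2.70).

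The 3 proteases beside Cpa3 were scarce. Mcpt8, a serine protease typical of basophils, had 10 and 8 UMIs in G (5.29 and 4.22 CPM) and 2 UMIs in HPSC of each library. Prss34, a second basophil protease, had 8 UMIs in 4 G cells of library 1 and 1 UMI in library 2. Cma1, a chymase of connective tissue mast cells, had 0 UMIs in G of either library, which allows up to 0.792 CPM, and 3 UMIs in 3 Ery cells of library 1.

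Il1rl1, which encodes the interleukin 33 receptor ST2, was most frequent in erythroid cells. It had 60 and 39 UMIs in Ery (3.15 and 2.17 CPM), 30 and 26 in Eryb (1.24 and 0.733 CPM), 3 and 4 in G (1.59 and 2.11 CPM) and 2 and 6 in HPSC (0.580 and 1.92 CPM). The intervals of Ery and G, of G and HPSC, and of HPSC and Eryb overlapped over both libraries, so the order of these neighbors is not settled at this depth. Ery held 57.9% and Eryb 32.7% of its 171 UMIs. Within the erythroid subclusters of the table, its level was 3.03 CPM in Ery 1, 2.29 in Ery 2, 2.46 in Ery 3 and 0.770 in Ery 4. Cpa3 differed from it, with 8.30 CPM in Ery 1 (7.06 to 9.69) and 0.559 CPM in Ery 2 (0.268 to 1.03). Hdc had 7.31 CPM (6.15 to 8.62) and 0.727 CPM (0.387 to 1.24). A single cell of library 1 held 29 of the 140 Hdc UMIs of Ery 1.

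**Figure D1:**
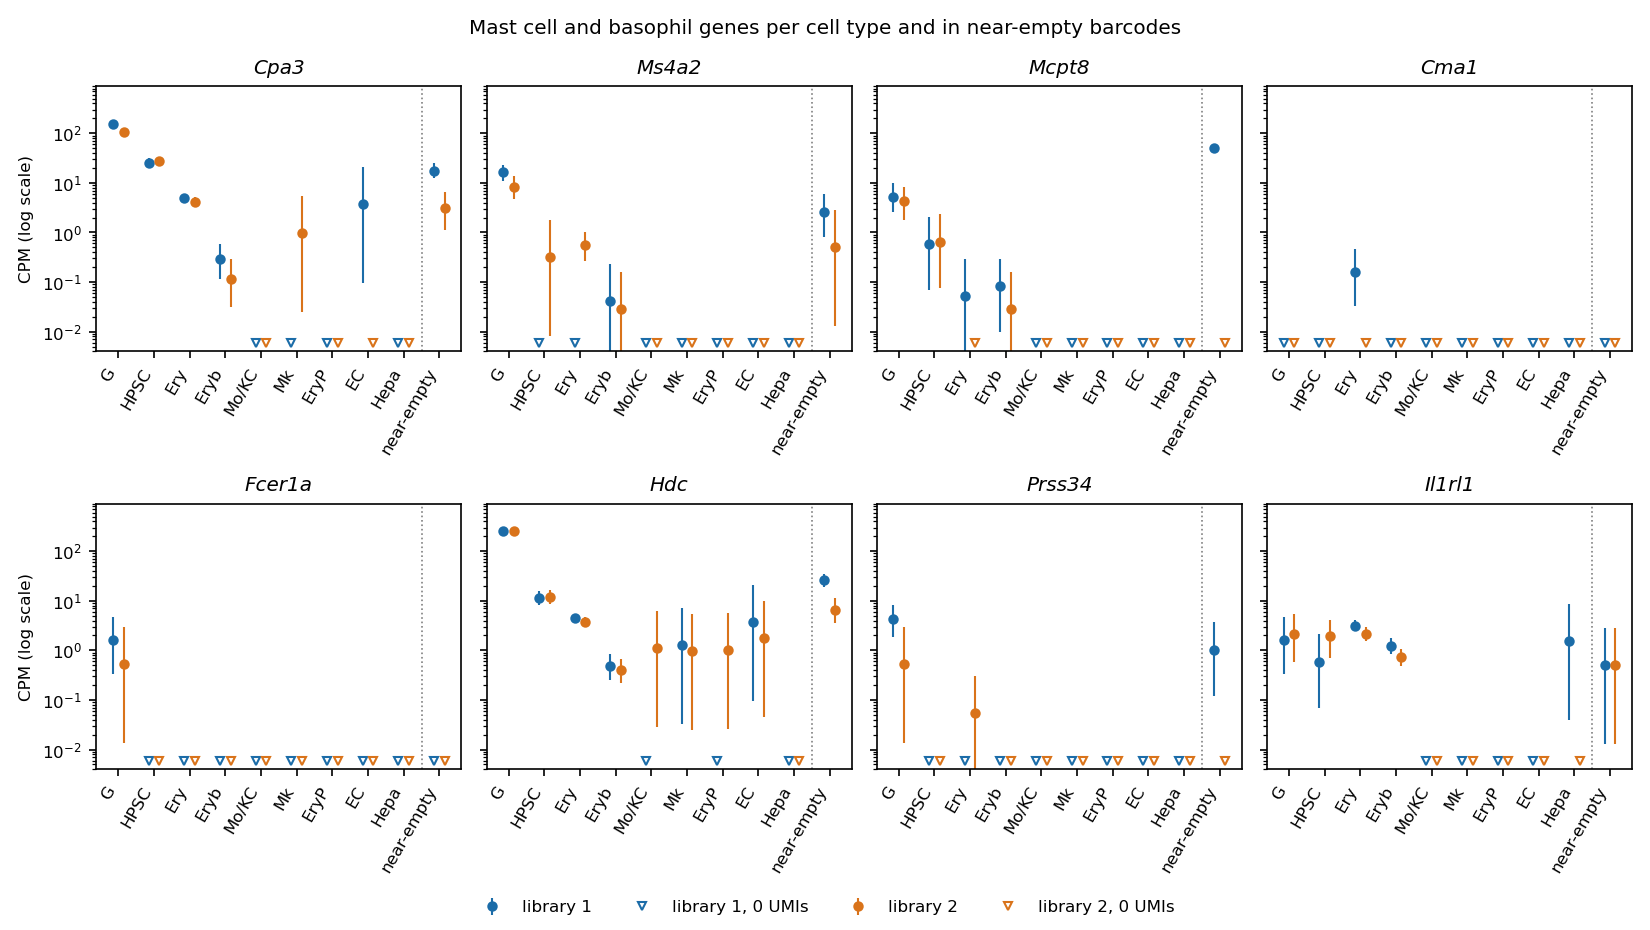
CPM (log scale) of the 8 genes in the 9 cell types and in near-empty barcodes with 1 to 50 UMIs. Filled points are the 2 libraries with exact Poisson 95% intervals, which are clipped at the lower axis limit, and open triangles mark 0 UMIs. Cpa3 and Hdc step down from G to HPSC, Ery and Eryb in both libraries, and Mcpt8 stands at 51.2 CPM in near-empty barcodes of library 1 and at 0 in those of library 2.

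Free RNA can place UMIs in cells that do not express a gene, so the levels were set beside near-empty barcodes with 1 to 50 UMIs. In such a barcode most or all RNA may be free, whereas in a cell free RNA is a part of the total. These levels are thus unlike measures, and a cell level above or below the near-empty level does not give the part of free RNA, which was not tested. In library 1 these held Cpa3 at 17.7 CPM (12.3 to 24.7), Hdc at 25.8 CPM (19.2 to 34.0) and Ms4a2 at 2.53 CPM (0.822 to 5.91). In library 2 they held Cpa3 at 3.06 CPM (1.12 to 6.66), Hdc at 6.63 CPM (3.53 to 11.3) and Ms4a2 at 0.510 CPM (0.0129 to 2.84). The G levels of these 3 genes were above the near-empty levels in both libraries. Mcpt8 was not, with 51.2 CPM (41.7 to 62.2) in near-empty barcodes of library 1 against 5.29 CPM in G, although in library 2 it had 0 UMIs there against 4.22 CPM in G. The HPSC level of Cpa3 was above the near-empty level in both libraries, although in library 1 the intervals overlapped. Hdc in HPSC lay below the near-empty level in library 1, where the intervals did not overlap (8.04 to 15.5 CPM in HPSC), and above it in library 2, where they did. In Ery, Cpa3 at 4.93 CPM and Hdc at 4.46 CPM lay below the near-empty levels in library 1. In library 2, Cpa3 in Ery at 4.17 CPM lay above the near-empty level and Hdc at 3.78 CPM below, and the intervals overlapped for both. Eryb cells held Cpa3 at 0.289 CPM and Hdc at 0.495 CPM in library 1, and at 0.184 and 0.435 CPM over both libraries. Whether these UMIs are free RNA or RNA of the cells was not tested.

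The starts of Cpa3, Ms4a2 and Hdc are shown because these 3 genes were found in the same cells, as described below. On build GRCm38 with the GENCODE M21 annotation, all 3 are protein-coding genes on the minus strand: Cpa3 at chr3:20215620-20242181, Ms4a2 at chr19:11615523-11623719 and Hdc at chr2:126593667-126619299. The promoters are 250 bases before to 50 bases after the RefSeq start (GRCm38.p6), 5′ to 3′ on the gene strand. They lie at chr3:20242132-20242431, chr19:11623670-11623969 and chr2:126618629-126618928, all on the minus strand. Capitals mark GATAA or its reverse complement TTATC, a form of the letters that GATA factors bind. Other forms were not searched.
Cpa3: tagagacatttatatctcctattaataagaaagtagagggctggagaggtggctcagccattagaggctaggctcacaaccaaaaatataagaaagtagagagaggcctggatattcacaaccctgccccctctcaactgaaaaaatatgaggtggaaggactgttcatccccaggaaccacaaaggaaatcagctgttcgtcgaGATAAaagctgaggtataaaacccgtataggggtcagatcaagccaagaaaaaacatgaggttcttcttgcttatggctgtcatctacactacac
Ms4a2: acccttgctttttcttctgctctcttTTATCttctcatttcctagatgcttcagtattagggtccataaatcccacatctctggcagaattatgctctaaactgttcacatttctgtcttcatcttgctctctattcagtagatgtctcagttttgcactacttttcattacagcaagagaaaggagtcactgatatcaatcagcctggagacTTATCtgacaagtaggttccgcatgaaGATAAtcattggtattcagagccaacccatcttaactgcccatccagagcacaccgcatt
Hdc: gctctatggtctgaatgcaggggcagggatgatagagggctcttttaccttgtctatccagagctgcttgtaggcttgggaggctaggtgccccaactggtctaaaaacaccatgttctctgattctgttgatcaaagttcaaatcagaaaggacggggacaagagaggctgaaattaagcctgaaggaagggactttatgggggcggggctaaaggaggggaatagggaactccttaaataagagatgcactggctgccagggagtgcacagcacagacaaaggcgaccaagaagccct
Cpa3 held 1 match, at -45 from the start, Ms4a2 held 3, at -224, -37 and -10, and Hdc held no GATAA or TTATC in this window. This does not say that Hdc lacks other forms of a GATA site there. For Hdc, the RefSeq start lies inside the gene span of GENCODE. All 8 genes had a RefSeq promoter, 9 in all, and 7 of these 9 promoters held at least 1 match, in 6 of the 8 genes. Among 32851 promoters of the same length, 25.4% held the letters and 5.27% held them 2 times or more. The E-box CANNTG, a palindrome that was also searched, was in 72.3% of all promoters, and TGACTCA or TGAGTCA in 5.20% of them and in none of the 9. Such matches describe the letters and not binding.

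Several of the 8 genes, always with Hdc among them, were often found in the same G cell. A UMI of at least 2 of them was present in 46 of 157 G cells of library 1 and 37 of 130 of library 2, or 28.9% over both libraries (23.7 to 34.5). In HPSC it was 12 of 213 and 11 of 208 cells, or 5.46% (3.49 to 8.08). In Ery it was 22 cells in each library, 40 of them in the subcluster Ery 1, or 5.45% of its cells (3.92 to 7.35), and the other 4 in Ery 2. No cell of another type held several. This allows up to 6.52% in EC, 4.69% in Hepa, 2.63% in Mo/KC, 2.22% in Mk, 1.04% in EryP and 0.0404% in Eryb. All 83 G cells with several held Hdc, which 193 of all 287 G cells held. Leaving out Hdc and Il1rl1 lowered the share in G, as given near the end of the report. The median depth of the cells with several was 17707 UMIs in G, 18926 in HPSC and 15786.5 in Ery. Thinned to 3600 UMIs, the share with several was 14.6% in G, 1.17% in HPSC and 1.69% in Ery 1, and G stayed above the others at equal depth.

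Cpa3 and Hdc alone made up the most frequent combination in each type, in 52 of the 83 G cells, 17 of the 23 HPSC cells and 19 of the 44 Ery cells. In G, 93.7% of the 79 cells with Cpa3 also held Hdc, against 57.2% of the G cells without Cpa3. In HPSC these shares were 36.2% of 58 cells and 6.34%, and in Ery 50.0% of 62 cells and 2.25%. They were not set to equal depth. Median depths of G cells with several, 1 and none of the genes were 17707, 11623 and 8805 UMIs. In HPSC they were 18926, 14975.5 and 15375, and in Ery 15786.5, 22990 and 23070. The part of depth in the shares was not tested. Next in G came Cpa3 with Ms4a2 and Hdc in 9 cells, and Mcpt8 with Hdc in 5 cells. All 16 G cells with Ms4a2 held Hdc, and 14 of them held Cpa3. All 3 G cells with Fcer1a and all 5 with Prss34 held both Cpa3 and Hdc. Cells with several of the genes held 96.6% of the Cpa3 UMIs of G and 71.4% of its Hdc UMIs. They held 59.9% of the Cpa3 UMIs of HPSC, where the other Cpa3 UMIs lay in cells with no second gene. Some cells with several also held many UMIs of the globin gene Hbb-bs, up to 1979 in G, 2413 in HPSC and 2097 in Ery. Whether such barcodes hold RNA of more than 1 cell was not tested.

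A few single cells show the combinations. A G cell of library 1 with 8668 UMIs held 5 of the 8 genes, with 11 Cpa3, 5 Hdc, 2 Fcer1a, 2 Prss34 and 1 Il1rl1 UMIs. The same cell held 96 UMIs of Ifitm1, an interferon-induced membrane protein, 2 of Cd200r3, an activating receptor of basophils and mast cells, 81 of Mpo, the myeloperoxidase of granulocyte precursors, 6 of the granule protease Prtn3 and none of Elane, the neutrophil elastase. Of 11 G cells with Mcpt8, 3 held 3 Mcpt8 UMIs each, at 7210, 3121 and 5146 UMIs in all. These 3 cells held 9, 5 and 8 Cd200r3 UMIs, 103, 34 and 141 Ifitm1 UMIs, 42, 3 and 1 Mpo UMIs, 3, 0 and 0 Prtn3 UMIs and no Elane, and none had a Kit UMI. The other 8 held 1 or 2 Mcpt8 UMIs and between 2 and 75 Elane UMIs and 26 and 309 Mpo UMIs, and 7 of them held Hdc. Of these 8 cells, 4 are of library 1 with 1 Mcpt8 UMI each, and the near-empty barcodes of that library held Mcpt8 at 51.2 CPM, whose part in these UMIs was not tested.

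**Figure D2:**
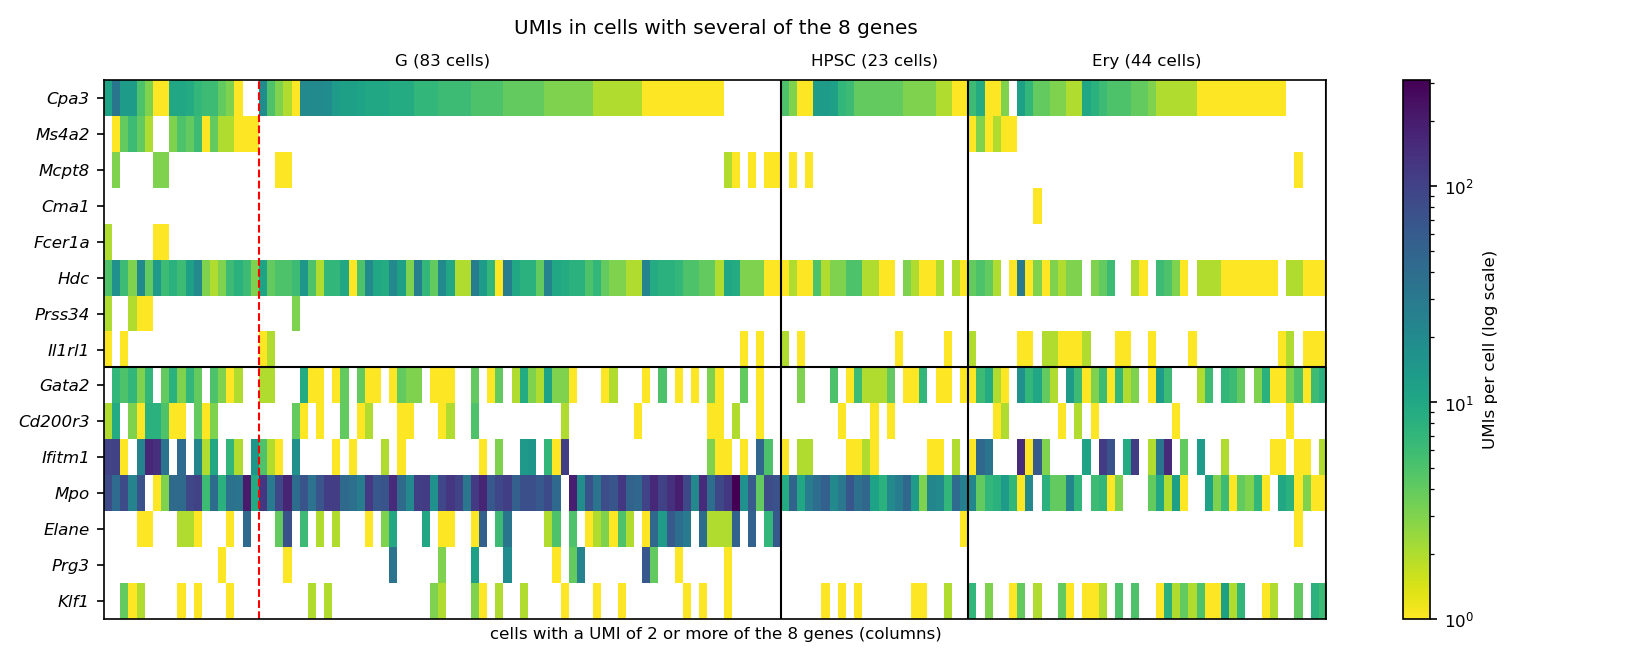
UMIs per cell (color, log scale, white is 0) in the 83 G, 23 HPSC and 44 Ery cells with a UMI of at least 2 of the 8 genes, which stand above the horizontal line, with 7 other genes below it. The red dashed line sets off the 19 G cells with Ms4a2 or Fcer1a, at the left. Cpa3 and Hdc run through nearly all columns, Prg3 is in G cells mostly right of that line, and Klf1 is most frequent in Ery cells.

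G cells with several of the genes were then compared with the 88 G cells that held none, over 7185 genes with at least 20 UMIs. A gene was counted as higher when its CPM, with 1 UMI added to each sum, was at least 2-fold higher in both libraries, and lower by the same rule. By this rule 282 genes were higher (3.92% of those tested) and 348 lower (4.84%). With the same rate of UMIs added to both groups, in place of 1 UMI, the shares were 4.34% and 4.51%. The 8 genes chose the cells, so their own values carry no information in this comparison. Depth differed between the groups, with a median of 17707 UMIs against 8805. The lists below were drawn up with earlier results of these data known.

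Of 90 further mast cell and basophil genes in 5 lists, 49 were tested, and 15 were higher and 4 lower. Their median log2 ratio, with the same rate of UMIs added to both groups, was 0.69, against 0.29 for all genes tested. Among the transcription factors, 5 of 11 tested were higher and none lower. Gata2, a factor that mast cells and basophils need, had 92 and 77 UMIs in cells with several (129 and 113 CPM) and 3 and 6 UMIs in cells with none (7.15 and 12.4 CPM), a ratio of 12.1 over both libraries (6.24 to 27.0). It was found in 52 of 83 cells against 6 of 88. Ikzf2, a factor of the Ikaros family, had a ratio of 10.1 (5.63 to 19.8), Gata1 4.02 (2.27 to 7.65), Gfi1b 3.72 (1.27 to 14.8) and Runx1 2.23 (1.59 to 3.18). Mitf, a factor of mature mast cells, had 0 UMIs in all 83 cells.

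Among the receptors, 5 of 15 tested were higher and none lower. Cd200r3 had 59 and 18 UMIs in cells with several, against 0 and 2 in cells with none, so that the libraries differed in its level (82.7 and 26.3 CPM). Kit had 24 and 28 UMIs against 6 and 5, a ratio of 3.06 (1.58 to 6.50), and was found in 36 of 83 cells against 10 of 88. The integrin Itga4, the granule membrane protein Cd63 and the IgG receptor Fcgr2b had ratios of 2.66, 2.45 and 2.67. Of the genes that signal from the IgE receptor, 11 were tested, and 1 was higher and 3 were lower. The adaptor Lat had 17 and 15 UMIs in cells with several and none in the others, at least 6.90 times as high when 3 counts over the group stand for the 0. The shared receptor gamma chain Fcer1g, the kinase Lyn and the adaptor Lcp2 were lower, at 0.486, 0.382 and 0.284 times the level of cells with none. They are used in neutrophils too. Without the 1 cell with most UMIs of a gene in each library, 12 of these 19 calls over all 5 lists held. Kit, Runx1, Gfi1b, Fcer1g, Lyn and Alox5ap then missed the 2-fold limit narrowly in 1 library each, with the same direction.

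Of 11 mediator and granule genes tested, 3 were higher and 1 lower. Srgn, the core protein that packs granule proteases, had 2290 and 1559 CPM against 606 and 479 CPM. Slc18a2, the transporter that loads histamine into granules, had 22 UMIs in 17 cells against 1 UMI. Ifitm1 had 955 and 314 CPM against 54.8 and 112 CPM, but in library 2 a single cell held 141 of its 215 UMIs, and without that cell the level was 109 CPM, so the call was lost. Alox5ap, a partner of the leukotriene enzyme Alox5, was lower at 0.467 times. Of the 14 further proteases, 13 had 0 UMIs in the 83 cells, among them the tryptases Tpsab1 and Tpsb2 and the chymases Mcpt1 and Mcpt4. Only cathepsin G (Ctsg), which neutrophil precursors also make, was tested, with 544 and 648 CPM against 47.7 and 215 CPM.

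Genes of other cell types differed as well. All 6 late granule genes of neutrophils were lower, and summed to 611 and 1133 CPM against 122838 and 97358 CPM. Ngp, a late granule protein, had 5 and 4 UMIs against 8877 and 8376. Of 4 eosinophil genes tested, Prg3, a granule major basic protein, was higher (81 and 89 UMIs against 4 and 3) and Ear2 was lower. Csf1r, a monocyte and Kupffer cell gene, was lower too, and so were Ly6c2 and F13a1. The F13a1 call was lost without the cell with most of its UMIs in each library. Itga2b, which marks megakaryocytes and their progenitors, was higher with 45.1 CPM against 3.32 CPM, and so were 3 of 5 progenitor genes tested, Myb and Sox4 among them. None of 8 erythroid genes tested passed in either direction. Among the 10 genes with the largest smaller ratio of both libraries were Hdc, Cpa3, Rnase12, Ms4a2, 4930519L02Rik, Lat, Prg3, Igfbp7 and Ctla2a. Rnase12, a member of the ribonuclease family, had 53 and 44 UMIs in 29 of 83 cells and none in the 88 others, at least 20.9 times as high. The 5 lowest were Lcn2, Ngp, Camp, Ltf and Retnlg, all expressed by maturing neutrophils.

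Because the late granule genes divided the groups so sharply, the comparison was repeated among G cells with less than 1% of their UMIs in these 6 genes. That left 81 of the 83 cells with several and 21 of the 88 cells with none, at median depths of 17824 and 19690 UMIs. Here the same rate of UMIs was added to both groups, and 136 of 6526 genes were higher (2.08%) and 60 lower (0.919%). Of 48 mast cell and basophil genes tested, 10 were higher and none lower. Gata2 had a ratio of 6.06 (3.01 to 14.3), Ikzf2 4.91 (2.68 to 10.0), Cd63 4.60 (3.73 to 5.75), Fcgr3 3.43 (2.74 to 4.33) and Cd200r3 11.1 (2.97 to 93.4). The other 5 were Alox5, Fcgr2b, Gata1, Lat and Slc18a2. Without the 1 cell with most of its UMIs in each library, Cd200r3 no longer passed, with 15.1 CPM against 8.07 CPM in library 2. Genes of other lists were higher too, namely all 3 eosinophil genes tested, the megakaryocyte gene Itga2b and the progenitor genes Myb and Sox4. Prg2 had 54 and 233 UMIs and Prg3 80 and 89 UMIs, against none of either in the 21 cells, and Siglecf had 45 and 43 against 4 and 2, though without the cell with most of them in each library it fell to 1.98 times in library 1. Kit no longer passed, with a ratio of 1.50 (0.755 to 3.31), and neither did Srgn, Ctsg or Ifitm1. Mpo stood at 4322 CPM in cells with several and 4419 CPM in cells with none. Irf8, Pld4, Cx3cr1, Ifitm3 and Rassf4 were the lowest in cells with several, named after their values were seen. Irf8, a factor of monocytes and dendritic cells, had 24 and 5 UMIs against 40 and 83. Of the listed genes, Csf1r, a monocyte and Kupffer cell gene, and F13a1 were lower. Without the cell with most of their UMIs in each library, their ratios were 0.158 and 0.275 for Csf1r and 0.338 and 0.122 for F13a1. S100a8 and S100a9 were lower as well, but their calls were then lost. The part of monocyte genes in the other ratios was not tested.

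Among G cells with several of the genes, the 19 cells with Ms4a2 or Fcer1a were compared with the other 64, a split made after the cells had been seen. Of the 19, 16 held Ms4a2, with 1 to 6 UMIs each, and 3 held Fcer1a. No cell held both chains of the receptor. The median depth of the 19 cells was 13506 UMIs against 18275.5. With the same rate added, 52 of 5845 genes were higher (0.890%) and 94 lower (1.61%), and of 45 mast cell and basophil genes tested, 6 were higher and none lower. Ifitm1 had 485 and 175 UMIs (4503 and 1438 CPM) against 196 and 40 UMIs (324 and 71.2 CPM). Cd200r3 stood at 343 and 73.9 CPM against 36.3 and 16.0 CPM, and Ccl3, a chemokine, at 381 and 255 CPM against 36.3 and 17.8 CPM. The other 3 were Fyn, Lat and Lat2. In library 2 single cells carried these calls, 1 cell with 8 of the 9 Cd200r3 UMIs and 1 cell with 30 of the 31 Ccl3 UMIs. Without the 1 cell with most UMIs of the gene in each library, 1 of the 6 calls held, that of Ifitm1, and Cd200r3 and Ccl3 in library 2 stood at 8.58 CPM each, below the other cells. Lower in these cells were Prg2 and Prg3, the granule major basic proteins of eosinophils, with 2 and 1 UMIs against 286 and 169. Of the Prg2 UMIs, 217 lay in 1 cell of library 2 and 42 in 1 cell of library 1, and without these cells the Prg2 call was lost (25.7 against 16.4 CPM in library 2), whereas that of Prg3 held. Prg2 and Prg3 UMIs lay in 10 and 12 of the 64 other cells and in 1 and 1 of the 19. Mpo and Kit did not pass, with 4023 CPM against 4607 CPM and 39.2 CPM against 36.8 CPM. A cell of library 2 with 15995 UMIs and 1 Ms4a2 UMI held 262 UMIs of the late granule gene S100a8, and the late granule sum of the 19 cells was 74.3 CPM in library 1 and 4954 CPM in library 2.

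**Figure D3:**
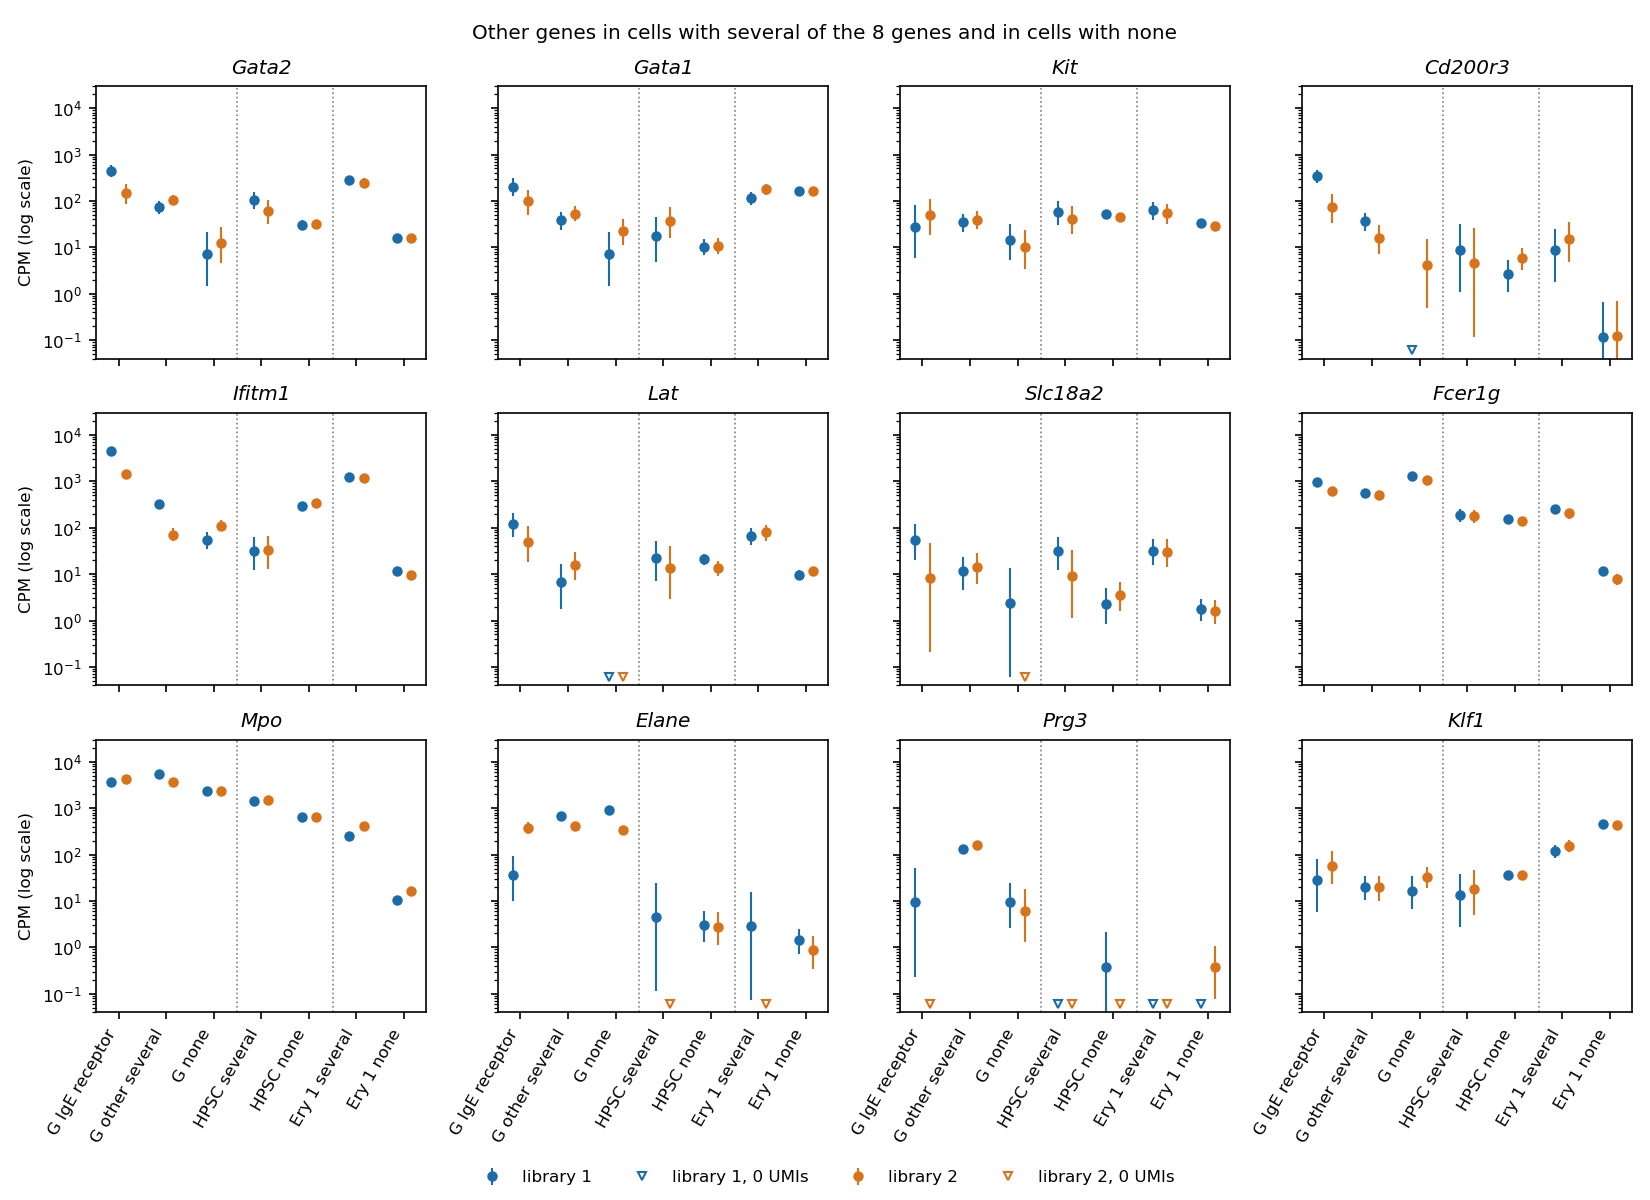
CPM (log scale) of 12 genes outside the 8 in 7 groups of cells: G cells with Ms4a2 or Fcer1a (G IgE receptor), other G cells with several of the 8 genes, G cells with none, and HPSC and Ery 1 cells with several or none. Filled points are the 2 libraries with exact Poisson 95% intervals, clipped at the lower axis limit, and open triangles mark 0 UMIs. Gata2 is high in the G and Ery 1 groups with several. In HPSC with several it lies above HPSC with none in both libraries, but it is not called there. Ifitm1 is high in the G IgE receptor group and in Ery 1 with several, and lower in HPSC with several than in HPSC with none. Prg3 is high in the other G cells with several. No cell of the G IgE receptor group held both Ms4a2 and Fcer1a.

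In HPSC, the 23 cells with several of the genes were compared with 334 cells with none. The groups held 442184 and 5188815 UMIs, and 1 UMI added to each sum counts for more in the smaller group. With 1 UMI added, 271 of 9307 genes were higher (2.91%) and 88 lower (0.946%), but with the same rate added 31 were higher (0.333%) and 297 lower (3.19%), so the balance of directions turned with this choice. Genes are called higher or lower here only where both ways agree. The 5 genes ranked highest were Cpa3, Hdc, Perp, Treml1 and Phf19. Perp, a membrane protein gene, had 17 and 26 UMIs (75.1 and 120.4 CPM) against 10 and 12 UMIs (3.77 and 4.73 CPM), a ratio of 22.9 (13.4 to 40.3), and was found in 12 of 23 cells against 14 of 334.

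Among the 56 mast cell and basophil genes tested in HPSC, 2 were higher both ways, whereas Itgb7, Ccl3 and Ifitm1 were lower both ways. Of all 9307 genes tested, at most 0.333% were higher and at most 0.946% lower both ways, the smaller share of either rule. Ikzf2 had 115 and 111 CPM against 42.6 and 46.1 CPM, and Fcgr3, an IgG receptor, 88.4 and 88.0 CPM against 40.3 and 40.2 CPM. Gata2 had 24 and 13 UMIs against 82 and 79, a ratio of 2.70 (1.83 to 3.88), but it passed only with 1 UMI added and is not called. Without the 1 cell with most of its UMIs in each library, Ikzf2 passed but Fcgr3 did not, at 1.89 and 1.95 times. Mpo was higher in both libraries, with 1405 and 1468 CPM against 650 and 650 CPM (1.99 and 1.97 times without the cell with most in each library), and so were Siglecf and Treml1, receptors of eosinophils and platelets. Lower both ways were Itgb7, Ccl3 and Ifitm1 of the mast cell and basophil lists, and the lymphoid and multipotent progenitor genes Flt3, Hoxa9 and Il7r. Ifitm1 had 7 UMIs in each library (30.9 and 32.4 CPM) against 292 and 343 CPM, the opposite of its direction in G. Kit stood at 49.8 CPM against 49.1 CPM (ratio 1.01, 0.623 to 1.57).

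In Ery 1, the comparison was added after the genes had been seen there, and it used the same rate added. The 40 cells with several were compared with 611 cells with none, at median depths of 16101 and 26894 UMIs. Of 9828 genes, 602 were higher (6.13%) and 309 lower (3.14%). Of 48 mast cell and basophil genes tested, 25 were higher and none lower, with a median log2 ratio of 1.79 against -0.003 for all genes. Gata2 had 100 and 81 UMIs (286 and 246 CPM) against 15.8 and 15.6 CPM, Fcer1g 254 and 204 CPM against 11.9 and 7.69 CPM, and Ifitm1 1242 and 1186 CPM against 11.5 and 9.55 CPM. Fcgr3, Csf2rb, Slc18a2, Alox5 and Alox5ap also passed. Fcer1g is used in neutrophils too, and the higher genes were not those of mast cells and basophils alone. Plac8, Cd52, Tyrobp and Coro1a, which are in none of the lists, ranked among the highest. Tyrobp had 154 and 195 CPM against 6.27 and 4.09 CPM, and Coro1a 634 and 581 CPM against 31.2 and 33.4 CPM. Mpo, Prtn3, Cd34 and Sox4 of other lists were higher too, and Klf1 and Epor, which drive red cell development, were lower, at 137 and 32.4 CPM against 452 and 138 CPM. The eosinophil gene Siglecf and the megakaryocyte and platelet genes Itga2b, Gp9, Gp1bb and Gp1ba were higher as well. Without the cell with most UMIs of the gene in each library, only Gp1ba of these was lost. Ms4a2 had 8 UMIs in 5 of the 40 cells, all in library 2. Among the Ery cells with several, 28 of 44 held Klf1 and 36 held Mpo.

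Granzyme B (Gzmb), a protease of the chymase locus that killer lymphocytes and some mast cells make, was found in 3 of these Ery 1 cells, all of library 1. A cell with 13662 UMIs held 12 Cpa3, 29 Hdc, 5 Gzmb and 152 Ifitm1 UMIs, and a cell with 11330 UMIs held 4 Cpa3, 3 Hdc, 7 Gzmb, 61 Ifitm1 and 1 Cma1 UMIs. Another cell, with 7193 UMIs, held 10 Cpa3 UMIs, 2 Il1rl1 UMIs and 1 Gzmb UMI, and no Hdc. The 3 cells held 10, 13 and 6 Fcer1g UMIs, at most 1 Mpo UMI and no Cd200r3 or Ms4a2.

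The protease genes lie in clusters. Mcpt8 (chr14:56082166-56085273, minus strand) and Cma1 (chr14:55941451-55944675, minus strand) are in the chymase locus, with starts 141 kb apart. Of the other genes of this locus, Ctsg had 1815 UMIs in G (479 CPM), whereas Cma2, Mcpt4 and Mcpt9 had none in any kept cell. Mcpt2 had 25 UMIs, 22 of them in Eryb. How reads that match several of these related genes were counted is not given in the sources used here, so single genes of the locus are uncertain at such counts. Prss34 (chr17:25298394-25300165, plus strand) is beside the tryptases. Of these, Tpsab1, Tpsb2, Prss28 and Prss29 had no UMI in any kept cell, and Tpsg1 had 5. Farther away, Prss32 (chr17:23843855-23859779) had none and Prss30 (chr17:23972126-23980566) had 2. Il1rl1 (chr1:40429570-40465415, plus strand) is in a cluster of interleukin 1 receptor genes. Its neighbors Il1r2 and Il18rap had 49 and 54 UMIs in G and 57 and 53 in HPSC, against 0 and 3 in Ery, where Il1rl1 had 99. Il1rl2, another neighbor, had 5 UMIs in G, 28 in HPSC and 28 in Ery, and Il18r1 had 13 in all kept cells. Fcer1a lies at chr1:173221284-173227214 on the minus strand.

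Across the 9 types in both libraries (18 points that share libraries and depth), the genes among 8270 whose log2(CPM + 1) followed Cpa3 most closely were Hdc (Pearson r 0.956), Gfi1 (0.933), Nkg7 (0.921) and Cd200r3 (0.913). Gfi1, a repressor of granulocyte precursors, had 27.0 and 30.1 CPM in G, 12.8 and 8.64 CPM in HPSC and at most 0.111 CPM in Ery. These values rank genes and carry no test.

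Barcodes that were not kept as cells also held the genes. Library 2 had 6258 of them with at least 500 UMIs, and these held Cpa3 at 8.38 CPM (6.59 to 10.5) and Hdc at 13.2 CPM (10.9 to 15.8), against 3.06 and 6.63 CPM in its near-empty barcodes. In that library 21 barcodes with at least 500 UMIs held several of the 8 genes, at a median of 1569 UMIs, and 4 of them held 3 or more. Library 1 had 525 barcodes with at least 500 UMIs that were not kept, none of which held several. Of these 525, 284 were among the called cells of the filtered matrix, against 0 of the 6258 of library 2. The barcodes not kept are therefore unlike between the libraries. The lowest kept cell of library 2, at 4387 UMIs, was deeper than each of the 21, which reached at most 4308 UMIs.

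**Figure D4:**
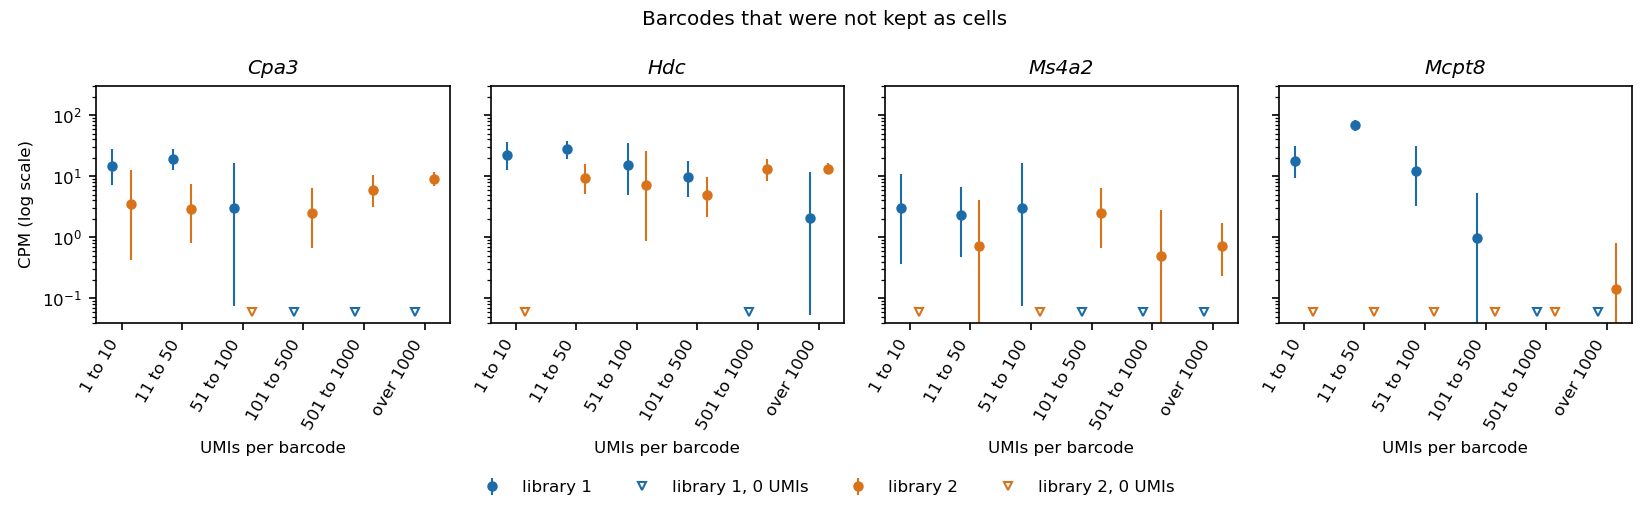
CPM (log scale) of Cpa3, Hdc, Ms4a2 and Mcpt8 in barcodes not kept as cells, in bins of UMIs per barcode. Filled points are the 2 libraries with exact Poisson 95% intervals, clipped at the lower axis limit, and open triangles mark 0 UMIs. In library 1, Mcpt8 is highest in barcodes with 11 to 50 UMIs, at 68.3 CPM, while library 2 has 1 Mcpt8 UMI in all bins, in the deepest.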

How the data were processed

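Per the labels and the methods, 2 droplet libraries of 1 E12.5 liver were made with the Chromium system, and the submitters' processing notes list bcl2fastq 2, Cell Ranger 2.1.1, Seurat 3.2.0 and build mm10. In library 1, the matrix header instead gives 3.0.0 as its software version. The authors deposited UMI counts for each gene in each barcode, not normalized, with a cell table made after cells with fewer than 200 genes had been removed. Each cell was tied to its library by the suffix of its name. No further doublets were removed here.

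Counts were summed per cell type and scaled to CPM with exact Poisson intervals. Shares carry Clopper-Pearson intervals and were thinned exactly to 3600 and 7200 UMIs. For a count of 0, 3 counts set the upper limit. Genes with at least 20 UMIs were compared between cells with several of the 8 genes and cells with none, and ratios carry exact conditional intervals. The scripts were tested on simulated data. The members and the lists were chosen with earlier results of these data known. Named genes are the 8 genes, the listed genes, the 5 most like Cpa3, and the 10 highest and 5 lowest in G and 5 highest in HPSC. Some genes that this rule names are not reported here. Further genes named by rank in the other comparisons were chosen after their values were seen. Alternatives were each library alone, other filters, added counts and groups. Adding the same rate, the Ery 1, IgE receptor and late granule comparisons, the bins of barcodes not kept and the calls without the cell with most UMIs of a gene were added after the data had been seen. Scripts ran in Python 3.11.15 with scipy 1.17.1 for intervals, pandas 2.3.3, matplotlib 3.10.9 for plots and numpy 2.4.6.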

Additional observations from a re-analysis of the deposited data

Results flagged for a closer look

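Mcpt8 in near-empty barcodes of library 1 lies outside the cells that the comparisons use, and its level there was above that of every cell type with more than 3 Mcpt8 UMIs. The barcodes with 1 to 50 UMIs held 101 Mcpt8 UMIs among 1974195 (51.2 CPM, 41.7 to 62.2), spread over 97 barcodes with at most 2 UMIs each. Those of library 2 held 0 among 1960160, which allows up to 1.53 CPM. The kept cells of library 1 held 15 Mcpt8 UMIs, 10 of them in G (5.29 CPM), and its Ery and Eryb cells together held 3 among 43319571 UMIs (0.0693 CPM). In the same near-empty barcodes of library 1, H2-Eb1 stood at 89.7 CPM, Cxcl2 at 229 CPM and Il1b at 153 CPM, against 0, 0.510 and 0.510 CPM in library 2. Over depth these genes did not follow Mcpt8, which stood at 17.9 CPM in barcodes with 1 to 10 UMIs and 68.3 CPM with 11 to 50. With 51 to 100 UMIs, Mcpt8 stood at 12.0 CPM, but H2-Eb1 at 981, Cxcl2 at 1395 and Il1b at 516 CPM. The part of these genes and of the library in the Mcpt8 level was not tested.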

How the results depend on the processing

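Without either library, Cpa3 in G ranged from 107.6 to 152.8 CPM. The share of G cells with several of the genes was 21.6% with at least 2 UMIs per gene, 7.67% with at least 3 genes, 6.97% without Hdc and Il1rl1, 10.8% without Cpa3 and 14.6% thinned to 3600 UMIs. In HPSC these shares were 3.09%, 0.950%, 0.475%, 0.950% and 1.17%, and 2.91% thinned to 7200 UMIs.

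Genes higher in G numbered 448 to 716 without either library, 159 with at least 50 UMIs, 455 with no minimum, 139 with 3 UMIs added, 81 in cells above the median UMIs, 95 among cells with little late granule RNA and 136 among these with the same rate added as well. Genes lower in G numbered 222, 673, 141 and 149 with at least 50 UMIs, no minimum, deep cells and little late granule RNA, and 60 for the last with the same rate added as well. Genes higher in HPSC numbered 518 to 605 without either library, 79 with at least 50 UMIs, 3836 with no minimum, 163 and 1658 with 0.5 and 3 UMIs added and 31 with the same rate added. Genes lower in HPSC numbered 482 to 507 without either library, 301 and 20 with 0.5 and 3 UMIs added and 297 with the same rate added. Without a library a gene needs 1 library only, and without a minimum the added UMI decides genes of few UMIs. The cause of the other shifts was not tested.

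The 15 genes named by rank in G and HPSC other than the 8 genes kept their call in 119 of 119 alternative values. Settings in which a gene was no longer tested are left out of this count. These genes were picked for the most extreme ratios of the same data, so the count is no independent support. Without the cell with most UMIs of a gene in each library, calls over the mast cell and basophil lists held for 12 of 19 genes in G, 4 of 11 in HPSC, 22 of 25 in Ery 1, 1 of 6 in the IgE receptor comparison and 9 of 10 among cells with little late granule RNA. Called genes of the other lists and genes named by rank were checked too. With them included, calls held for 34 of 42 genes in G and 12 of 20 in HPSC. They held for 44 of 48 in Ery 1 and 8 of 18 in the IgE receptor comparison. Among cells with little late granule RNA, 27 of 31 held. The 11 of HPSC from the mast cell and basophil lists passed with 1 UMI added. They include Gata2, which is not called where both ways must agree. The 4 that held were Ikzf2, Itgb7, Ccl3 and Ifitm1, which passed both ways. Rare genes (Mcpt8, Prss34, Fcer1a, Cma1) rest on 26 UMIs or fewer, so a count of 0 for them allows the limits given in the report. No paired analysis was possible because the study has a single condition, which leaves nothing to pair.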

Other observations

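A few barcodes stood apart, described here after they had been seen. A barcode of library 1 with 138 UMIs that was not kept as a cell held 8 Cma1 UMIs and no UMI of the other 7 genes, more Cma1 than all kept cells together (3 UMIs). In library 2, a barcode with 3602 UMIs that was not kept held 3 Cpa3, 2 Hdc, 1 Fcer1a and 6 Prss34 UMIs, whereas all kept cells of both libraries held 10 Prss34 UMIs. A second such barcode, with 2870 UMIs, held 3 Cpa3 and 5 Hdc UMIs. Of the granzymes next to Mcpt8, Gzmc, Gzmd, Gzme, Gzmf and Gzmg had 15, 11, 7, 16 and 10 UMIs in all kept cells, and none in G, HPSC or Ery.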
